A study of Xenopus tropicalis with 26 samples.

Results

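The pou5f3 genes and the SoxB genes sox2 and sox3 were followed as messenger RNA through the cleavage and early blastula stages of the frog Xenopus tropicalis. The 5 genes were taken by symbol, pou5f3.1, pou5f3.2, pou5f3.3, sox2 and sox3, from a table of 28778 genes, and all 5 were among the 12883 genes with enough counts to be tested. Pou5f3 proteins are POU homeodomain factors related to mammalian Oct4, and Sox2 and Sox3 are high mobility group factors of the SoxB1 class. Pou and Sox proteins can bind next to each other on DNA. In frog and zebrafish, maternally supplied members of these families are known to open chromatin at regulatory regions before the embryo's own genome becomes active, and they keep early cells uncommitted. The egg stores RNA of some family members, whereas others are first transcribed by the embryo.

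Polyadenylated RNA of whole embryos was sequenced in 26 stranded libraries that form 13 groups of 2, so every mean ± SD below has n = 2. Wildtype embryos, which were not injected, were collected at stages 6, 7 and 8. At stages 7 and 8 there were 5 injected groups: an antisense morpholino against E2f1 (E2f1 MO), this MO with mRNA of E2f1, the MO with mRNA of an E2f1 mutant named deltaDBD, Cdkn1a mRNA alone, and the MO with Cdkn1a mRNA. E2f1 is a transcription factor best known from cell cycle genes, deltaDBD by its name lacks the DNA-binding domain, and Cdkn1a inhibits cyclin-dependent kinases. No group with a control morpholino or a control mRNA was used here. Whether both libraries of a group stem from different clutches is not given in the labels. A p-value here therefore reflects the spread of these 26 libraries alone, and that spread can be technical.

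Library totals ran from 14071614 to 19032710 counted fragments. The e2f1 transcript was at 440 ± 9.2 CPM (counts scaled to a common library size after TMM normalization) in stage 7 wildtype and reached 3013 ± 36 CPM when E2f1 mRNA and 2113 ± 45 CPM when deltaDBD mRNA had been injected. The cdkn1a transcript stayed at or below 6.09 CPM without Cdkn1a mRNA and reached group means of 239 to 298 CPM with it. A morpholino can block translation or splicing, so these levels check the injected mRNA and not the knockdown. All 11 egg and cleavage markers were above 1 CPM in every library, with a summed level of 1744 to 2512 CPM. Markers of differentiated tissues, 7 of 8 of which were in the table, summed to 1.14 to 4.26 CPM, most of it from neurog1, and the 5 follicle markers in the table summed to at most 0.339 CPM. Only 2 of 7 testis markers were in the table, and their sum was 13.9 to 18.9 CPM, nearly all from ropn1l. The libraries of stage 8 E2f1 MO stood apart: counts of replicates 1 and 2 differed by a chi-square of 12.6 per gene, against 1.82 to 2.28 in the other 12 groups. Results that rest on these libraries are therefore also given without each of them. The spread was estimated from all 26 libraries. Leaving these out can therefore change the p-value, but not the level, in comparisons that do not use them.

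In the v10 build used by the deposited table, pou5f3.1 (chromosome 8, 3297186 to 3301765), pou5f3.2 (3286063 to 3291320) and pou5f3.3 (3277708 to 3282836) lie side by side on the minus strand within 24058 bases, with no other gene between them. Each has 5 exons, and the inner exons have the same lengths in all 3 genes, 112, 131 and 165 bases. RefSeq's UCB_Xtro_10.0 annotation gives the same spans and lists oct91, oct25 and oct60 as synonyms of pou5f3.1, pou5f3.2 and pou5f3.3. sox3 lies on the same chromosome (55346463 to 55348089) and sox2 on chromosome 5 (108035485 to 108037707), each as a single exon on the minus strand. Counting was by strand, and fragments that mapped to several places were not counted. Fragments from stretches shared by the pou5f3 copies would therefore be lost, and how much sequence they share was not examined here. The genes beside the pou5f3 cluster had low counts: fut7 was at 0 to 0.381 CPM and npdc1.1 at 2.16 to 6.62 CPM over all libraries.

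At stage 6, the earliest stage sampled, the 5 genes fell into abundant and scarce transcripts. pou5f3.3 stood at 1169 and 1170 CPM in the 2 libraries, sox3 at 902 and 859 CPM, and pou5f3.2 at 157 and 167 CPM. In contrast, sox2 had 3 counts and pou5f3.1 had 1 count in each library. Per kilobase of exon, which allows genes to be compared, sox3 was at 541 ± 18 and pou5f3.3 at 507 ± 0.11 CPM per kb, 65th and 71st among the 12883 tested genes. pou5f3.2 followed at 62.1 ± 2.7 CPM per kb as number 1784, and the median tested gene was at 10.1 CPM per kb. sox2 was at 0.0877 CPM per kb and pou5f3.1 at 0.0265 CPM per kb, near the end of the list at 12344 and 12625. The 3 abundant transcripts are called stored below, because they were present at high level before the main activation of the genome, and the other 2 are called newly made. Sequencing of total polyadenylated RNA does not separate molecules made in the ovary from molecules made by the embryo.

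**Figure D1:**
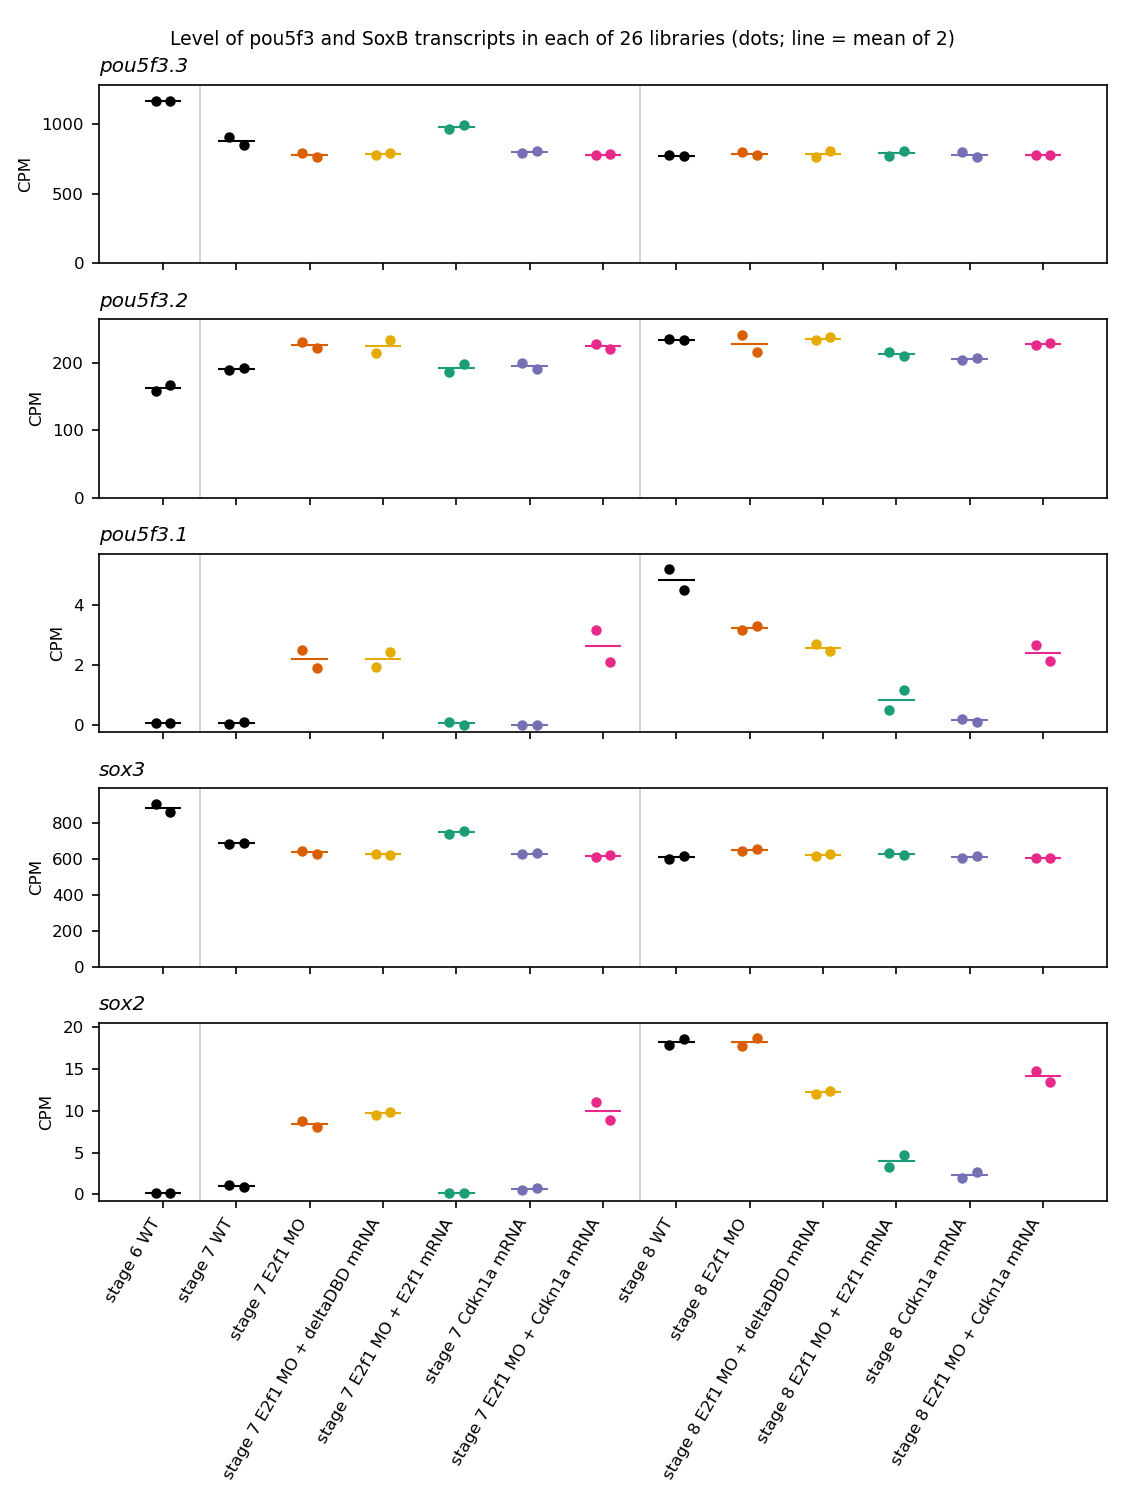
Level of each gene in CPM (y axis, linear) in the 26 libraries, by group (x axis); dots are libraries and lines are means of 2. pou5f3.3 and sox3 are highest at stage 6, pou5f3.2 is lowest there, and pou5f3.1 and sox2 are near 0 until stage 8 in wildtype but not in stage 7 embryos with the E2f1 MO, given alone, with deltaDBD mRNA or with Cdkn1a mRNA.

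In wildtype embryos the stored transcripts changed by at most 0.60 on the log2 scale and in different directions. The newly made ones rose from near 0. However, the classes were set by the stage 6 level, and sox2 and pou5f3.1 passed the count filter only through groups where they were higher. That both were tested and were higher in such groups, here and in morphants, therefore follows in part from this choice. The first comparison asks what happened to each gene between stages 6 and 8. pou5f3.3 went from 1169 and 1170 CPM at stage 6 to 912 and 850 CPM at stage 7 and 776 and 769 CPM at stage 8. Its libraries did not overlap between stages, and from stage 6 to 8 it fell by 0.60 ± 0.04 on the log2 scale (± SE), to 0.661 of the first level. sox3, the stored SoxB1 gene, fell by 0.54 ± 0.03, from 902 and 859 through 684 and 687 to 599 and 615 CPM. pou5f3.2 went the other way, from 157 and 167 through 189 and 191 to 235 and 233 CPM. This is a rise of 0.53 ± 0.05, or 1.44-fold, so that stored members of 1 gene cluster changed in opposite directions. These are levels relative to the bulk of tested genes, because CPM used TMM factors, and the median tested gene moved by 0.06 (log2). The factors were 0.872 and 0.881 in the stage 6 and 1.026 and 1.029 in the stage 8 wildtype libraries. Relative to all counts, the falls would therefore be smaller and the rise of pou5f3.2 larger. With polyA selection, more RNA and better captured RNA give the same reading, and in whole embryos fewer cells with a transcript and less RNA per cell cannot be told apart.

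Of the newly made genes, sox2 was already higher at stage 7, while a rise of pou5f3.1 was seen at stage 8. A difference in timing was not tested, and pou5f3.1 had too few counts before stage 8 to show one. sox2, known as a regulator of the early neural plate, had 3 and 3 counts at stage 6, 21 and 14 counts at stage 7 and 330 and 342 counts at stage 8. Thus it had already risen at stage 7, to 0.987 ± 0.19 CPM, by 2.31 ± 0.62 on the log2 scale (ratio of counts 5.12, counting interval 2.13 to 14.9). It reached 18.2 ± 0.48 CPM at stage 8, a further rise of 4.19 ± 0.26. pou5f3.1, a gene of the later embryo's undifferentiated cells in Xenopus, had 1 and 1 counts at stage 6 and 1 and 2 counts at stage 7, too few to give a fold. At stage 8 it had 96 and 83 counts, or 4.85 ± 0.49 CPM, which is 56.9-fold above stage 7 (counting interval 19.2 to 279). Without stage 7 wildtype replicate 2, which held 2 of the 3 counts, the fitted rise was 6.32 in place of 5.71 on the log2 scale. Such counting intervals are exact at 95% and cover counting error only. In the test across all genes (edgeR, quasi-likelihood F-test, p-values adjusted by Benjamini and Hochberg over all tested genes, here and below), 4 of the 5 genes changed between stages 6 and 7, where 56.3% of all tested genes did. All 5 changed between stages 7 and 8, against 36.7% of all genes, and all 5 between stages 6 and 8, against 69% of all genes. Adjusted p over both later comparisons ran from 2.87e-20 for sox2 between stages 6 and 8 to 8.13e-05 for pou5f3.3 between stages 7 and 8.

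Large folds of the newly made genes were small parts of each family's RNA. Within the summed level per kb of the 3 pou5f3 genes, pou5f3.3 held 89.1 ± 0.41% at stage 6, 84.0 ± 0.80% at stage 7 and 78.5 ± 0.03% at stage 8. pou5f3.2 held 10.9 ± 0.41%, 16.01 ± 0.80% and 20.99 ± 0.02% at these stages. The share of pou5f3.1 reached 0.464 ± 0.04% at stage 8. Of the summed sox2 and sox3 level, sox2 made up 0.0162% at stage 6, 0.105 ± 0.02% at stage 7 and 2.15 ± 0.02% at stage 8. The summed level itself went down in both families, from 569 ± 2.8 through 454 ± 18 to 426 ± 3.0 CPM per kb for pou5f3 and from 541 ± 18 through 422 ± 0.97 to 381 ± 7.3 CPM per kb for sox2 with sox3. sox3 and pou5f3.3 were still 63rd and 78th of all tested genes per kb at stage 8, while pou5f3.2 had moved to 770, sox2 to 7491 and pou5f3.1 to 9888. In wildtype embryos of stage 8, the stored genes thus still held most of the RNA of either family.

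**Figure D2:**
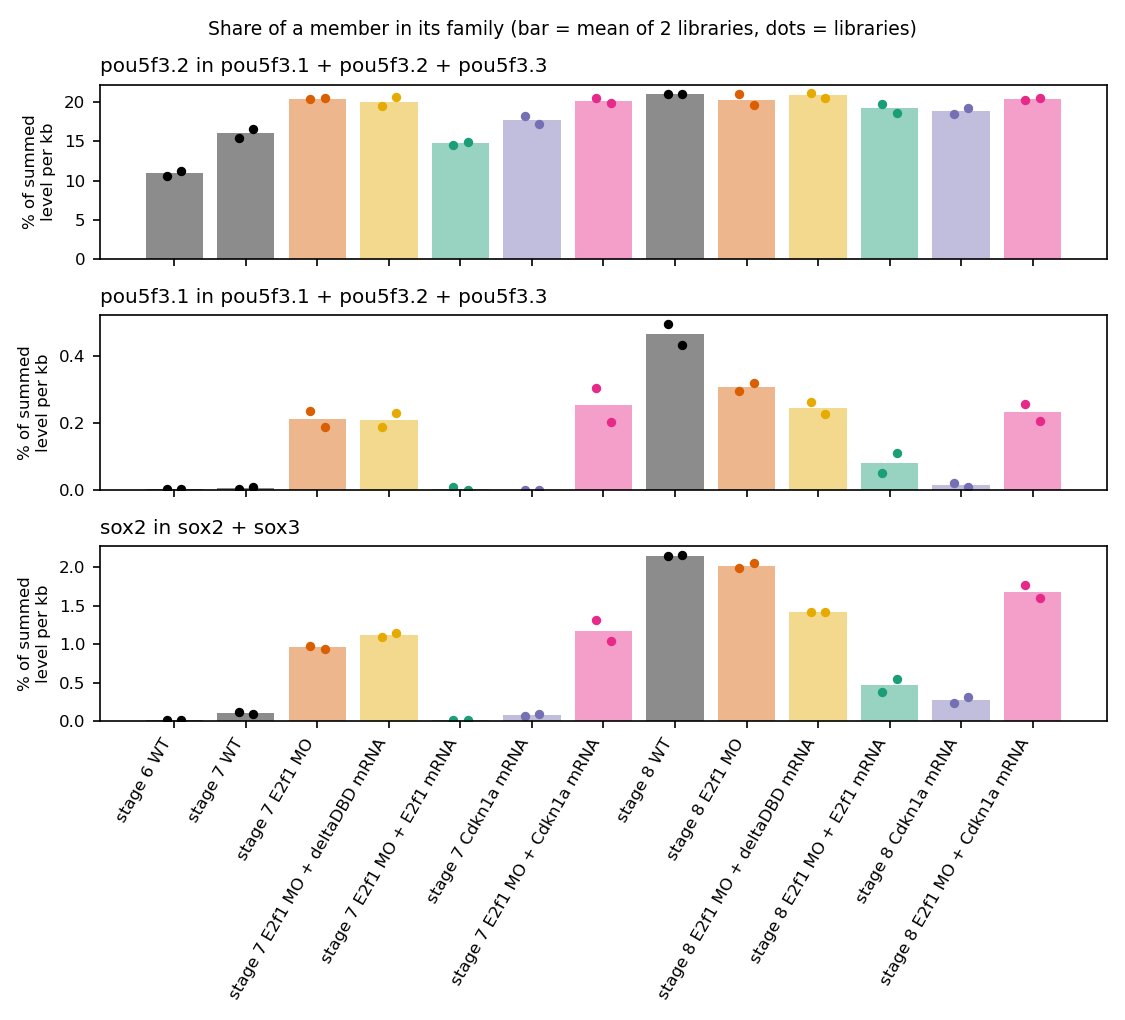
Share of pou5f3.2, pou5f3.1 and sox2 in the summed CPM per kb of their family (y axes, %, starting at 0 and differing between panels) by group (x axis); bars are means of 2 libraries and dots are libraries. In wildtype the share of pou5f3.2 goes from 10.9% to 20.99% between stages 6 and 8, and that of sox2 from 0.0162% to 2.15%.

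Embryos given the E2f1 MO were compared with uninjected wildtype of the same stage, which asks how these genes differ after injection of this MO. Without a control morpholino, loss of E2f1 function and effects of the injection cannot be told apart here. At stage 7 the newly made genes were far higher in morphants and the stored genes lay nearer to the stage 8 than to the stage 7 level of wildtype. sox2 was at 8.71 and 8.10 CPM against 1.12 and 0.850 CPM in wildtype, a rise of 3.07 ± 0.26 (adjusted p = 6.85e-13). pou5f3.1 had 47 and 33 counts against 1 and 2, or 26.1-fold more (counting interval 8.63 to 129; adjusted p = 2.79e-07). Both morphant libraries were above both wildtype libraries for either gene. Without stage 7 wildtype replicate 2 the fitted rise of pou5f3.1 was 5.201 in place of 4.59 (log2). pou5f3.2 was higher too, at 230 and 222 CPM against 189 and 191 CPM (0.25 ± 0.05, adjusted p = 0.00017). pou5f3.3 was lower, at 796 and 761 CPM against 912 and 850 CPM (-0.18 ± 0.04, adjusted p = 0.000312). sox3 was lower as well, at 644 and 626 CPM against 684 and 687 CPM (-0.11 ± 0.03, adjusted p = 0.00935). Its call rested on single libraries: without stage 7 E2f1 MO replicate 2 the adjusted p was 0.126, and without wildtype replicate 1 or 2 it was 0.0518 or 0.0566. The TMM factors were 1.008 and 1.015 in these morphants and 0.9822 and 0.9846 in wildtype. Relative to all counts, the falls of pou5f3.3 and sox3 would therefore be smaller and the rise of pou5f3.2 larger. All 5 genes were called in this comparison, against 25.2% of all tested genes, and each had the direction of its own wildtype change from stage 7 to stage 8. The 2 comparisons share the stage 7 wildtype libraries, so this likeness of direction is not independent.

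At stage 8, sox2 and pou5f3.3 of morphants were close to wildtype, while pou5f3.1 was lower without passing the test. sox2 was at 17.8 and 18.65 CPM in morphants and 17.9 and 18.6 CPM in wildtype, a difference of 0.00 ± 0.12 (95% interval -0.27 to 0.27). pou5f3.1 was at 3.17 and 3.299 CPM against 5.203 and 4.51 CPM, without overlap, but the difference of -0.59 ± 0.26 did not pass the test (adjusted p = 0.212). sox3 was at 641 and 653 CPM against 599 and 615 CPM (0.09 ± 0.03, adjusted p = 0.101), and pou5f3.3 differed by 0.03 (interval -0.05 to 0.11). For pou5f3.2 the morphant libraries themselves were apart, at 241 and 216 CPM around wildtype values of 235 and 233 CPM. None of the 5 was called by edgeR or by DESeq2, where 4.32% of all genes were called by edgeR, and 2 had an unadjusted p under 0.05. Without stage 8 E2f1 MO replicate 1, sox3 (0.11, adjusted p = 0.00672) and pou5f3.2 (-0.12, adjusted p = 0.0487) were called, and without replicate 2 the values were 0.08 (adjusted p = 0.17) and 0.04 (adjusted p = 0.743).

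The step from stage 7 to 8 was therefore compared between morphants and wildtype. In morphants only sox2 was called, rising from 8.41 ± 0.43 to 18.2 ± 0.61 CPM (1.11 ± 0.14, adjusted p = 2.34e-06; 3.69% of all genes called), and without either stage 8 E2f1 MO library it rose by 1.15 or 1.08. For pou5f3.2, pou5f3.3 and sox3 the morphant step was between 0.01 and 0.03, with intervals of -0.09 to 0.12, -0.06 to 0.10 and -0.04 to 0.10. The difference of steps between morphants and wildtype was called for all 5 genes, against 16.1% of all genes. This value is the stage 8 difference of morphants from wildtype minus the stage 7 one. It therefore repeats the stage 7 differences with their sign turned, in part for sox3 and nearly in full for sox2, and is not a separate result. It was -3.07 ± 0.29 for sox2 and -5.18 ± 0.96 for pou5f3.1, where the latter rests on 3 counts in stage 7 wildtype. It was -0.29 ± 0.07 for pou5f3.2, 0.21 ± 0.05 for pou5f3.3 and 0.20 ± 0.04 for sox3. Without stage 7 wildtype replicate 1, pou5f3.3 was at 0.16 (adjusted p = 0.0653), and without replicate 2, pou5f3.1 was at -5.79. Without either stage 8 E2f1 MO library all 5 calls held, with values of -0.37 or -0.21 for pou5f3.2.

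**Figure D3:**
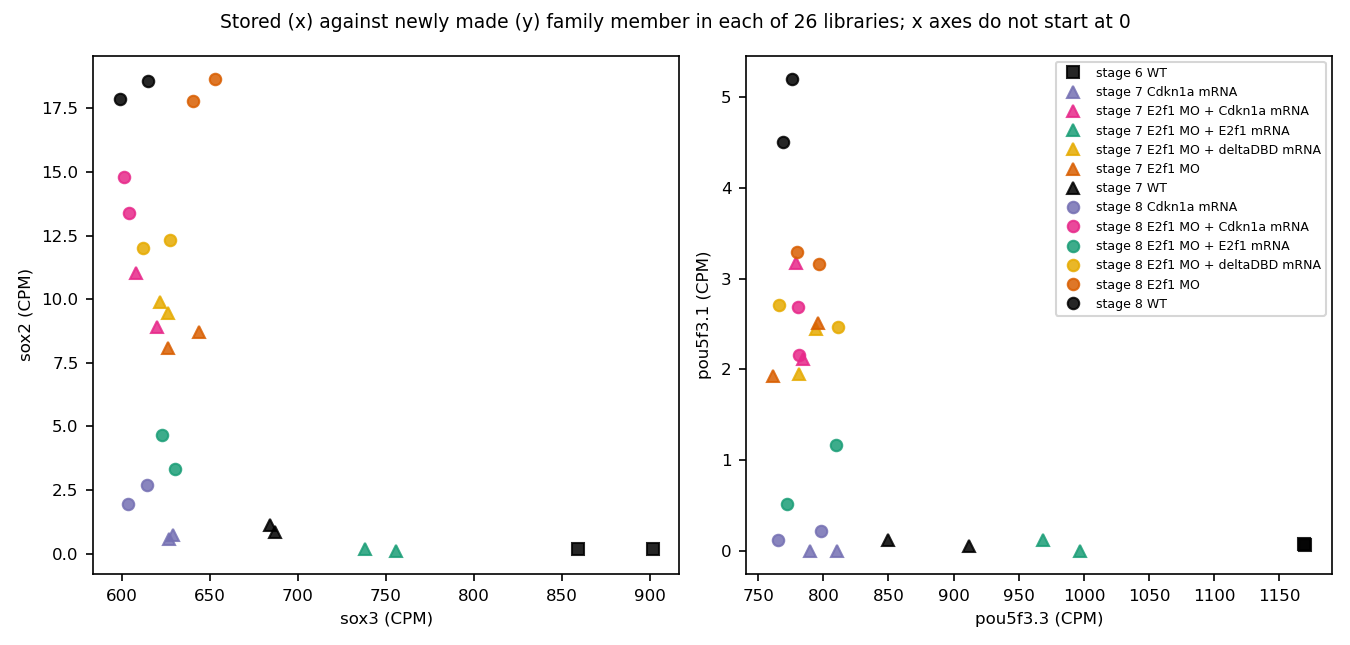
Level of a stored gene (x axis, CPM, not starting at 0) against a newly made gene of the same family (y axis, CPM) in each of 26 libraries: sox3 and sox2 on the left, pou5f3.3 and pou5f3.1 on the right. Squares are stage 6, triangles stage 7 and circles stage 8, coloured by treatment; the libraries with Cdkn1a mRNA alone lie low on both axes, with sox3 between 604 and 629 CPM and sox2 at or below 2.69 CPM.

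Morphants that also received mRNA of E2f1 or of its deltaDBD mutant came next. The comparison asks whether the effect depends on the part of E2f1 that deltaDBD lacks. With E2f1 mRNA at stage 7, all 5 genes differed from the MO alone in the direction of stage 7 wildtype. sox2 had 3 and 2 counts with E2f1 mRNA, 163 and 139 with the MO alone and 155 and 158 with deltaDBD mRNA. pou5f3.1 had 2 and 0 counts, 47 and 33 counts, and 32 and 39 counts in these groups. Against the MO alone, sox2 was 54.6-fold lower with E2f1 mRNA by counts (counting interval 23.2 to 170; adjusted p = 1.56e-15) and pou5f3.1 was 36.2-fold lower (9.71 to 305; adjusted p = 7.04e-08). Both counts of pou5f3.1 came from replicate 1. Without replicate 2 its fitted difference from the MO alone was -4.14 in place of -5.02 and from deltaDBD mRNA -4.12 in place of -5.00. Without replicate 1 the group had no count, and no fold is given. The newly made genes thus had as few counts as in stage 6 wildtype, whose libraries held 3 and 3 for sox2 and 1 and 1 for pou5f3.1. The stored genes moved back as well. pou5f3.3 was at 968 and 997 CPM with E2f1 mRNA, above the MO alone by 0.34 ± 0.04 and above deltaDBD mRNA (781 and 794 CPM) by 0.32 ± 0.04. sox3 was at 738 and 756 CPM, above the MO alone by 0.23 ± 0.03 and above deltaDBD mRNA (626.5 and 622 CPM) by 0.26 ± 0.03. pou5f3.2 was at 186 and 198 CPM, below the MO alone by 0.24 ± 0.05 and below deltaDBD mRNA (215 and 234 CPM) by 0.22 ± 0.05. The TMM factors were 0.9466 and 0.9471 with E2f1 mRNA and 1.008 and 1.015 with the MO alone. Relative to all counts, pou5f3.3 and sox3 would therefore differ less from the MO alone and pou5f3.2 more. All 5 genes were called against the MO alone, where 45.4% of all genes were, and all 5 against deltaDBD mRNA, where 46.6% were, with the highest adjusted p at 0.000285.

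deltaDBD mRNA left all 5 genes near the MO alone at stage 7. sox2 was at 9.46 and 9.89 CPM with deltaDBD mRNA, above the MO libraries but with a difference of 0.20 ± 0.15 (interval -0.12 to 0.52). The intervals were -0.68 to 0.64 for pou5f3.1, -0.12 to 0.09 for pou5f3.2, -0.06 to 0.09 for pou5f3.3 and -0.09 to 0.04 for sox3. None was called by edgeR or DESeq2 and none had an unadjusted p under 0.05, while 0.031% of all genes were called by edgeR. Against wildtype of stage 7, all 5 were called with deltaDBD mRNA, where 26.8% of all genes were. sox2 was higher than in wildtype by 3.27 ± 0.26 and pou5f3.2 by 0.24 ± 0.05. pou5f3.1 was higher by 4.57 ± 0.93, or by 5.18 without stage 7 wildtype replicate 2. The call of pou5f3.3 (-0.16 ± 0.04) was lost without stage 7 wildtype replicate 1 (adjusted p = 0.0726).

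E2f1 mRNA did not leave every gene at the stage 7 wildtype level: 3 of the 5 genes were called against wildtype. sox2 was lower than in wildtype, at 0.153 ± 0.04 against 0.987 ± 0.19 CPM (-2.64 ± 0.67, adjusted p = 0.00127). pou5f3.3 was higher by 0.16 ± 0.04 (983 ± 20 against 881 ± 44 CPM, adjusted p = 0.00338) and sox3 by 0.12 ± 0.03 (747 ± 13 against 686 ± 1.7 CPM, adjusted p = 0.00878). The TMM factors were 0.9466 and 0.9471 with E2f1 mRNA and 0.9822 and 0.9846 in wildtype. Relative to all counts, these differences of pou5f3.3 and sox3 would therefore be smaller. Of all genes, 13% were called in this comparison. The calls of the stored genes rested on single libraries. Without stage 7 E2f1 MO + E2f1 mRNA replicate 2 the adjusted p was 0.0719 for pou5f3.3 and 0.119 for sox3, and without wildtype replicate 2 it was 0.138 and 0.0661. Without wildtype replicate 1, sox3 was at 0.0636. pou5f3.2 was at 192 ± 8.6 against 190.1 ± 1.8 CPM, a difference of 0.02 (interval -0.09 to 0.12). pou5f3.1 was not called either, with 2 and 0 counts against 1 and 2 in wildtype, too few to give a fold. The e2f1 transcript in this group was far above wildtype (see its level above), so return of E2f1 and excess of E2f1 cannot be told apart.

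At stage 8 sox2 and pou5f3.1 were lower with E2f1 mRNA, while pou5f3.3 and sox3 lay near their level with deltaDBD mRNA. The stored pou5f3.2 was also below deltaDBD mRNA in each library, but was not called with all libraries fitted. With E2f1 mRNA, sox2 was at 3.32 and 4.66 CPM, against 17.8 and 18.65 CPM with the MO alone (-2.18 ± 0.16, adjusted p = 6.18e-13) and 12.02 and 12.3 CPM with deltaDBD mRNA (-1.60 ± 0.16, adjusted p = 6.71e-09). pou5f3.1 had 9 and 22 counts with E2f1 mRNA, 52 and 52 with the MO alone and 48 and 46 with deltaDBD mRNA. It was lower than with the MO alone by 1.92 ± 0.36 (log2) and lower than with deltaDBD mRNA by 1.60 ± 0.36. The second call (adjusted p = 0.00606) was lost without deltaDBD mRNA replicate 1 (0.0739) or E2f1 mRNA replicate 1 of stage 8 (0.3). Without E2f1 mRNA replicate 2 of stage 8, pou5f3.1 was at -2.63 against the MO alone, -2.31 against deltaDBD mRNA and -3.22 against wildtype, where it was at -2.50 with both libraries. The stored pou5f3.3 was at 772 and 810 CPM with E2f1 mRNA and 766 and 811 CPM with deltaDBD mRNA, with an interval of the difference from -0.07 to 0.08, and sox3 differed by 0.02 (interval -0.05 to 0.08). Of the 5 genes, sox2 and pou5f3.1 were called against the MO alone, where 6.06% of all genes were, against deltaDBD mRNA, where 1.6% were, and against wildtype, where 5.75% were. The call of both genes against the MO alone also held without stage 8 E2f1 MO replicate 1 (-2.21 and -1.95) and without replicate 2 (-2.15 and -1.89). pou5f3.2 was at 216 and 209 CPM, with a difference of -0.15 ± 0.05 from deltaDBD mRNA (adjusted p = 0.147). It was called without either stage 8 E2f1 MO library (adjusted p = 0.00512 and 0.0051), as was its difference from wildtype (-0.14 ± 0.05, adjusted p = 0.0823, then 0.00371 and 0.00369). Against the MO alone it was called without replicate 2 of that group (-0.18, adjusted p = 0.00453) and was at -0.02 without replicate 1.

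With deltaDBD mRNA at stage 8, sox2 was below the MO alone by 0.58 ± 0.13 (adjusted p = 0.0152; 1.03% of all genes called) and below wildtype by 0.58 ± 0.13 (adjusted p = 0.00675; 1.82% called). The first call was lost without either deltaDBD mRNA library of stage 8 (adjusted p = 0.204 and 0.147) or without E2f1 MO replicate 2 (0.0611), and without E2f1 MO replicate 1 pou5f3.2 was called too (0.13, adjusted p = 0.0364). The second was lost without any 1 of the 4 libraries compared (0.0534 to 0.108). pou5f3.1 was at 2.71 and 2.47 CPM, below both wildtype libraries at 5.203 and 4.51 CPM, but did not pass the test (-0.91 ± 0.26, adjusted p = 0.0678). It was called without the count filter (adjusted p = 0.0121) and without either stage 8 E2f1 MO library (0.0297 and 0.0292).

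Between stages 7 and 8, morphants with E2f1 mRNA changed in all 5 genes, where 44.6% of all genes changed. sox2 rose from 5 counts in the group to 146, a 26.1-fold rise (counting interval 10.9 to 81.7), and pou5f3.1 from 2 counts to 31, or 13.9-fold (3.53 to 120). The fitted rise of pou5f3.1, 3.64 ± 1.14 on the log2 scale, was 2.76 without stage 7 E2f1 mRNA replicate 2 and 2.93 without stage 8 replicate 2, while without stage 7 replicate 1 there was no count to compare with. pou5f3.3 fell by 0.31 ± 0.04, sox3 fell by 0.25 ± 0.03 and pou5f3.2 rose by 0.14 ± 0.05. The last call was lost without replicate 1 of E2f1 mRNA at stage 7 (adjusted p = 0.203) or at stage 8 (0.112). The difference between this step and that of wildtype was called in 0 of 5 genes by edgeR and by DESeq2, and 2 had an unadjusted p under 0.05, with 0.66% of all genes called. For sox2 it was 0.46 ± 0.69 (interval -1.03 to 1.94) and for pou5f3.3 -0.12 ± 0.05 (interval -0.23 to -0.01). With deltaDBD mRNA the step differed from wildtype in all 5 genes, against 13.4% of all genes, by -3.85 ± 0.29 for sox2, -0.23 ± 0.07 for pou5f3.2 and 0.19 ± 0.05 for pou5f3.3. For pou5f3.1 it was -5.48 ± 0.96, or -6.09 without stage 7 wildtype replicate 2. The calls of the 3 stored genes were fragile. Leaving out any 1 of the 4 deltaDBD mRNA libraries, stage 7 wildtype replicate 1 or either stage 8 wildtype library ended at least 1 of them, with adjusted p of 0.0501 to 0.167. Within the deltaDBD mRNA groups the step itself was called in 0 of 5 genes by edgeR and DESeq2, with 0.38% of all genes called, and sox2 (0.33 ± 0.14, interval 0.03 to 0.64) was the 1 gene with an unadjusted p under 0.05.

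**Figure D4:**
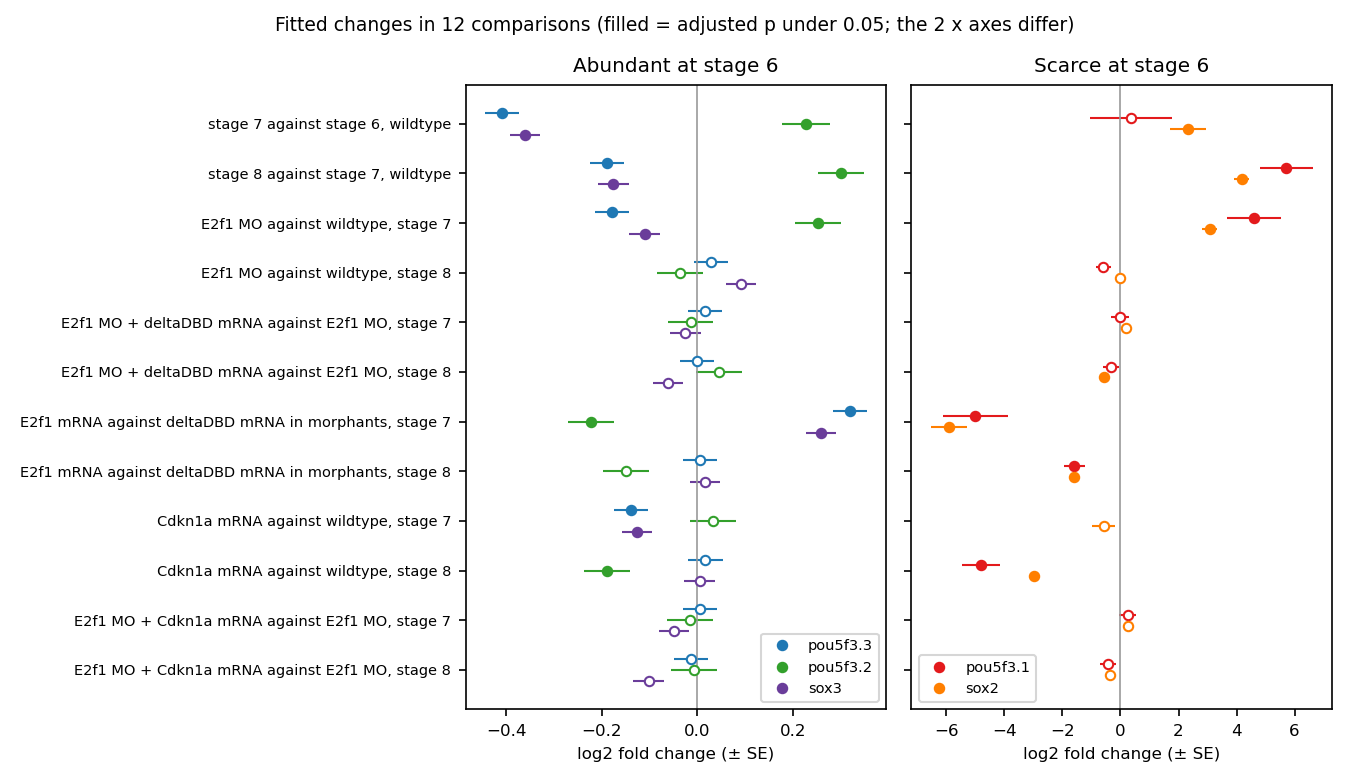
Fitted log2 fold changes with standard errors (x axes, which differ between panels) in 12 comparisons (y axis) for the stored genes on the left and the newly made genes on the right; filled points have an adjusted p under 0.05. pou5f3.1 is not drawn for Cdkn1a mRNA against wildtype at stage 7, where it has no count in 1 group. The drawn changes of stored genes stay within -0.41 and 0.32.

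Cdkn1a mRNA was compared with wildtype, which asks what an inhibitor of cell cycle kinases does to the same genes. The genes called were pou5f3.3 and sox3 at stage 7, and sox2, pou5f3.1 and pou5f3.2 at stage 8. This is a difference in calls: only the steps of sox2 and pou5f3.2 were called as different from wildtype (below). Stage 7 wildtype held 3 counts of pou5f3.1 in the group, so a fall there could hardly be called. At stage 7, pou5f3.3 was at 790 and 811 CPM against 912 and 850 CPM in wildtype (-0.14 ± 0.04, adjusted p = 0.0217), and sox3 at 627 and 629 CPM against 684 and 687 CPM (-0.13 ± 0.03, adjusted p = 0.0188). pou5f3.3 and sox3 were thus lower. Newly made genes were not higher: sox2 was at 0.577 and 0.756 CPM against 1.12 and 0.850 CPM (-0.58 ± 0.39, adjusted p = 0.415), and pou5f3.1 had no count in either library against 1 and 2 in wildtype, too few for a fold. pou5f3.2 was at 199 and 190 CPM against 189 and 191 CPM (interval -0.07 to 0.14). The 2 called genes stand against 4.75% of all genes. The call of sox3 was lost without any 1 of the 4 libraries compared (adjusted p = 0.104 to 0.169), and that of pou5f3.3 without wildtype replicate 1 (0.369) or either Cdkn1a mRNA library (0.222 and 0.0745).

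At stage 8 the newly made genes were low with Cdkn1a mRNA while pou5f3.3 and sox3 lay near wildtype. sox2 was at 1.96 and 2.69 CPM against 17.9 and 18.6 CPM, a difference of -2.97 ± 0.19 (adjusted p = 1e-15). pou5f3.1 had 4 and 2 counts against 96 and 83, a difference of -4.81 ± 0.66 (adjusted p = 3.79e-10). pou5f3.2 was lower too, at 204 and 207 CPM against 235 and 233 CPM (-0.19 ± 0.05, adjusted p = 0.0104). This call was lost without any 1 of the 4 libraries compared (adjusted p = 0.0615 to 0.112). pou5f3.3 was at 798 and 765 CPM (interval of the difference -0.06 to 0.09) and sox3 at 604 and 614 CPM (-0.06 to 0.07). Thus 3 of 5 genes were called, all lower, against 6.22% of all genes called and 3.41% called lower. Per kb, sox2 was 10564th of the tested genes in these embryos, against 7491st in wildtype, while sox3 was 63rd in both. Of the step from stage 7 to 8, sox2 was called in Cdkn1a mRNA embryos, rising by 1.80 ± 0.34 where 2.41% of all genes changed. Its step differed from that of wildtype by -2.39 ± 0.43 (adjusted p = 0.00106; 6.09% of all genes called). The step of pou5f3.2 differed as well (-0.22 ± 0.07, adjusted p = 0.0455), but this call was lost with DESeq2 (0.0804) and without any 1 of the 8 libraries compared (0.059 to 0.203). pou5f3.3 (0.15 ± 0.05, adjusted p = 0.061) and sox3 (0.13 ± 0.05, adjusted p = 0.0773) were not called, but were without stage 8 E2f1 MO replicate 1 (0.00613 and 0.006) or replicate 2 (0.00608 and 0.00604).

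The last comparisons placed Cdkn1a mRNA in morphants. With both reagents the 5 genes lay near the MO alone. At stage 7, sox2 was at 11.02 and 8.92 CPM and pou5f3.1 at 3.17 and 2.11 CPM, against 8.71 and 8.10 CPM and 2.51 and 1.92 CPM with the MO alone. pou5f3.3 was at 779 and 784 CPM, sox3 at 608 and 620 CPM and pou5f3.2 at 228 and 220 CPM (the plot of levels by library shows them beside the MO). No gene was called against the MO alone by edgeR or DESeq2, none had an unadjusted p under 0.05, and 1.4% of all genes were called by edgeR. The intervals were -0.07 to 0.55 for sox2, -0.38 to 0.87 for pou5f3.1 and within -0.12 to 0.09 for the stored genes. Against Cdkn1a mRNA alone, pou5f3.1 was at least 29.2-fold higher at stage 7 (floor of 3 counts over the group; adjusted p = 1.31e-08) and sox2 was higher by 3.90 ± 0.32. pou5f3.2 was higher by 0.20 ± 0.05, but not without MO + Cdkn1a mRNA replicate 1 (adjusted p = 0.105) or Cdkn1a mRNA replicate 2 (0.127). These 3 genes were called, all higher, against 7.51% of all genes. pou5f3.3 and sox3 differed from Cdkn1a mRNA alone by -0.03 each, with intervals of -0.11 to 0.04 and -0.10 to 0.04. Against wildtype all 5 were called, as they were with the MO alone, where 31% of all genes were, with sox2 higher by 3.32 ± 0.26 and sox3 lower by 0.16 ± 0.03. pou5f3.1 was higher by 4.84 ± 0.92, or by 5.45 without stage 7 wildtype replicate 2.

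At stage 8, sox2 with both reagents was at 14.8 and 13.4 CPM, against 1.96 and 2.69 CPM with Cdkn1a mRNA alone (2.59 ± 0.19, adjusted p = 2.61e-13). pou5f3.1 was at 2.69 and 2.15 CPM against 0.218 and 0.112 CPM (3.79 ± 0.68, adjusted p = 1.75e-06). Both were called, where 4.04% of all genes were. pou5f3.2 (0.15 ± 0.05, adjusted p = 0.0886) was called only without stage 8 E2f1 MO replicate 1 (0.0039) or replicate 2 (0.00391). Both were below the MO alone and below wildtype in every library. Against the MO alone sox2 differed by -0.38 ± 0.13 (adjusted p = 0.149) and against wildtype by -0.38 ± 0.13 (adjusted p = 0.316). No gene was called in either comparison by edgeR or DESeq2, and 2 had an unadjusted p under 0.05 in each, with 1.82% and 0.473% of all genes called by edgeR. Without stage 8 E2f1 MO replicate 1, sox3 was called as lower than with the MO alone (-0.12, adjusted p = 0.00355), and without replicate 2 it was at -0.09 (adjusted p = 0.086). pou5f3.1 was below wildtype by 1.02 ± 0.27 (log2, adjusted p = 0.0792), and was called without the count filter (0.00875) or without either stage 8 E2f1 MO library (0.0278 and 0.0274). From stage 7 to 8 with both reagents 0 of 5 genes were called by edgeR and DESeq2, with 0.14% of all genes called, and sox2 (0.49 ± 0.14) alone had an unadjusted p under 0.05. Each step differed from that of wildtype, where 16.1% of all genes did, by -3.69 ± 0.29 for sox2 and -0.28 ± 0.07 for pou5f3.2. For pou5f3.1 it was -5.85 ± 0.96, or -6.46 without stage 7 wildtype replicate 2. The call of pou5f3.3 (0.19 ± 0.05) was lost without stage 7 wildtype replicate 1 (adjusted p = 0.113). That of sox3 (0.15 ± 0.05) was lost without either stage 7 wildtype library, stage 8 wildtype replicate 1, stage 7 MO + Cdkn1a mRNA replicate 1 or either stage 8 MO + Cdkn1a mRNA library (0.0518 to 0.0911).

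The interaction of both reagents, that is the effect of the MO with Cdkn1a mRNA present minus its effect without, was tested at each stage. At stage 8 it was 2.59 ± 0.23 for sox2 (adjusted p = 1.14e-10) and 4.38 ± 0.72 for pou5f3.1 (adjusted p = 1.63e-06), where 6.33% of all genes were called, 3.85% as positive and 2.48% as negative. Without stage 8 E2f1 MO replicate 1 the values were 2.56 and 4.35 and without replicate 2 they were 2.63 and 4.41. pou5f3.2 (0.18 ± 0.07, adjusted p = 0.114) and sox3 (-0.11 ± 0.05, adjusted p = 0.174) were not called, but both were without stage 8 E2f1 MO replicate 1 (0.26, adjusted p = 0.000278 and -0.12, adjusted p = 0.0205). Without replicate 2 they were at 0.11 (adjusted p = 0.28) and -0.09 (adjusted p = 0.149). At stage 7, 0 of 5 genes were called by edgeR or by DESeq2, 1 had an unadjusted p under 0.05, and 1.05% of all genes were called by edgeR. That gene was pou5f3.3 (0.14 ± 0.05, adjusted p = 0.198). It was called when only stage 7 libraries were fitted (adjusted p = 0.00881) or without either stage 8 E2f1 MO library (0.0276 and 0.0275).

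Across all 13 groups, the libraries of groups next to each other in the order of levels overlapped less often for sox2 than for the other members. How often they overlap over all tested genes was not counted, so this is not shown to be particular to sox2. The low end of the sox2 order is not resolved: stage 6 wildtype held 3 and 3 counts and stage 7 MO + E2f1 mRNA 3 and 2. sox2 ranged 147-fold between libraries, from 0.127 to 18.65 CPM, a fold that is imprecise because the lowest library held 2 counts. In the order of group means its neighbouring libraries overlapped in 2 of 12 pairs. These were stage 8 wildtype with stage 8 E2f1 MO, and stage 7 MO + Cdkn1a mRNA with stage 7 MO + deltaDBD mRNA. pou5f3.3 and sox3 each ranged 1.54-fold and 1.51-fold, and 9 of 12 neighbouring pairs overlapped. Stage 6 wildtype, stage 7 MO + E2f1 mRNA and stage 7 wildtype stood above all other groups in that order for both genes, each apart from the next. For pou5f3.2, which ranged 1.53-fold, stage 6 wildtype stood lowest and 8 of 12 pairs overlapped. For pou5f3.1, stage 8 wildtype stood highest, 6 groups between 2.196 and 3.23 CPM followed without a gap, and 9 of 12 pairs overlapped.

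Over the 13 group means of log2(CPM + 0.5), Pearson's r was 0.987 between pou5f3.3 and sox3 and 0.963 between pou5f3.1 and sox2. pou5f3.2 was nearer to sox2 (0.926) than to its stored neighbour pou5f3.3 (-0.874). The groups share stages and treatments, so these values describe the 13 points and are not tests. By the same measure 10115 other named genes were compared, with unnamed loci left out. Among them, the genes most like sox2 were foxi4.2 (0.9955), an ectodermal forkhead gene, ventx2.1 (0.994), sbk1l (0.994) and the mesendoderm homeobox gene mix1 (0.993). Those most like pou5f3.1 were fst, which encodes follistatin, dusp6, an ERK phosphatase gene, the Wnt antagonist gene dkk1 and ventx1.1, at 0.986 to 0.989. fst was at 1.42 CPM in stage 7 morphants and 2.60 CPM in stage 8 wildtype, with no count in wildtype before. For pou5f3.2 they were hdlbp (0.985), fam177b, znf470 and znf350 (0.977 to 0.978). hdlbp, which encodes the RNA-binding protein vigilin, went from 81.1 through 120.5 to 166 CPM in wildtype. znf470 had no count at stage 6 and reached 74.4 CPM at stage 8. For pou5f3.3 they were clk2, a splicing kinase gene, tpx2, a spindle assembly gene, dlst and psip1 (0.996 to 0.997), and for sox3 ddx39a, tpx2, hmgb1 and arf6 (0.993 to 0.995). tpx2 went from 1129 through 799.7 to 677 CPM in wildtype and was at 697 CPM in stage 7 morphants.

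Other POU and SOX genes were read for comparison. Of 15 other POU genes listed, 14 were in the table and 6 had enough counts to be tested. From stage 6 to 8 in wildtype 4 of the 6 rose and 0 fell, with a median of 2.16 against 0.06 over all genes, all from a few counts. Over all tested genes 36.4% rose and 32.6% fell. The 4 that rose had 0 to 5 counts in the stage 6 group, so they passed the count filter only through groups where they were higher. The counts and medians of these 6 genes, here and in morphants, therefore follow in part from the filter. The same holds for genes of the other lists that had few counts at stage 6. pou3f2, a neural POU gene, went from 4 to 45 counts in the group (3.17 ± 0.88), and pou4f1, from 0 to 29 counts, was at least 8.09-fold higher. The stored pou2f1, which encodes Oct1, was at 220.5 ± 6.4 CPM in stage 6 and 178.5 ± 6.5 CPM in stage 8 wildtype. In stage 7 morphants 1 of 6 was higher and 0 lower than in wildtype, with a median of 1.499 against 0.01 over all genes, of which 12.7% were higher and 12.5% lower. That gene was pou3f2 (2.65 ± 0.90, adjusted p = 0.007), which had 2 counts with E2f1 mRNA and 20 with deltaDBD mRNA at that stage (adjusted p = 0.00401).

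Of 19 other SOX genes listed, 18 were in the table and 13 were tested. From stage 6 to 8 in wildtype 9 rose and 2 fell, with a median of 0.75, where 36.4% and 32.6% of all genes did. sox11, already present at stage 6, rose from 43.9 ± 0.09 to 129 ± 3.8 CPM (1.56 ± 0.06). The endoderm genes sox17b.1 (5.34 ± 0.71) and sox17a (5.17 ± 0.75) rose from 4 counts each, and sox15 fell from 176 ± 4.2 to 106 ± 4.6 CPM. sox1, the third SoxB1 gene, was at 0 CPM at stage 6, 0.690 ± 0.23 CPM in stage 7 morphants and 1.82 ± 0.11 CPM in stage 8 wildtype. In stage 7 morphants 8 of 13 were higher and 2 lower than in wildtype (median 0.54; 12.7% and 12.5% of all genes), among them sox4 (0.54 ± 0.09), sox17b.2 (2.103 ± 0.44) and sox17a (1.12 ± 0.30). With E2f1 mRNA against deltaDBD mRNA 7 were lower and 2 higher (median -0.605; 23.9% and 22.6% of all genes), including sox17a (-3.55 ± 0.59) and sox11 (-0.54 ± 0.05). With Cdkn1a mRNA at stage 8, 4 were lower and 1 higher than in wildtype (median -0.19; 3.41% and 2.81% of all genes).

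Genes named with Pou5f3 and SoxB in the pluripotency network moved in both directions. Of 42 listed, 37 were in the table and 34 were tested. From stage 6 to 8, 17 rose and 9 fell (median 0.26 against 0.06 over all genes), where 36.4% and 32.6% of all genes did. Among the rises were the homeobox gene ventx2.1 (at least 167-fold) and klf17, a Krüppel-like factor gene (3.65 ± 0.14), and among the falls was gmnn, which encodes geminin, from 1441 ± 26 to 1024 ± 14 CPM. In stage 7 morphants 12 were higher and 3 lower than in wildtype (median 0.12), against 12.7% and 12.5% of all genes. ventx2.1 was at 9.54 ± 0.79 against 0.537 ± 0.07 CPM there (4.13 ± 0.35) and ventx3.1 had 41 counts against 2. With E2f1 mRNA against deltaDBD mRNA at stage 7, 17 were lower and 5 higher (median -0.21; 23.9% and 22.6% of all genes), and ventx2.1 was lower by 5.31 ± 0.56. With Cdkn1a mRNA at stage 8, 10 were lower and 0 higher than in wildtype (median -0.05; 3.41% and 2.81% of all genes). The interaction at that stage was positive in 8 and negative in 2, against 3.85% and 2.48% of all genes.

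Transcription factors stored in the egg, 26 of 27 listed being tested, were about as often higher as lower. From stage 6 to 8 in wildtype 12 rose and 11 fell (median 0.02; 36.4% and 32.6% of all genes), with mybl2 (1.43 ± 0.04) and creb1 (1.08 ± 0.05) up and tbpl1 (-1.02 ± 0.05) and foxh1, which encodes a Nodal effector, down (-0.62 ± 0.03). In stage 7 morphants 5 were higher and 6 lower than in wildtype (median 0.00; 12.7% and 12.5% of all genes), with creb1 higher by 0.31 ± 0.04 and tbpl1 lower by 0.26 ± 0.05. With E2f1 mRNA against deltaDBD mRNA 9 were higher and 8 lower (median -0.02; 22.6% and 23.9% of all genes), foxh1 being at 1144 ± 8.6 against 895 ± 11 CPM and creb1 lower by 0.41 ± 0.04 (log2). Stored transcription factor genes thus held both the direction of pou5f3.3 and sox3 and that of pou5f3.2.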

How the data were processed

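The authors deposited 1 table of gene counts for the 26 libraries. Per the file header, featureCounts counted read pairs with both mates mapped on the reverse strand, without chimeric pairs. The submitters' processing notes name fastp, STAR 2.7.0e, featureCounts 2.0.1 and deepTools. Counts were taken as deposited, filtered with filterByExpr, scaled by TMM and fitted in edgeR 4.0.16 (R 4.3.3, robust quasi-likelihood) with 1 mean for each of 13 groups. P-values were adjusted over 12883 genes, with a threshold of 0.05. CPM used TMM-scaled library sizes, and values per kb used the exonic length in the table. Likeness between genes used log2(CPM + 0.5) and named genes reaching 2 CPM in a group, without unnamed loci. In 3 comparisons (stage 8 against 6 in wildtype, and at stage 7 the MO against wildtype and E2f1 against deltaDBD mRNA) up to 4 genes of each list with the smallest p could be named, and for each of the 5 genes the 4 most like it. pou2f1 and sox1 are named outside this rule, after their values were seen. The steps were tested on simulated counts. Alternatives were DESeq2 1.42.0 (Wald test) and its size factors, no filter, a replicate block, only the stages compared, and each library left out. The 5 genes and the lists were chosen with earlier results of these data known. Sequences of the genes were not used here.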

Additional observations from a re-analysis of the deposited data

Results flagged for a closer look

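Tests of a difference between 2 groups' effects singled out the following values, all on the log2 scale and from edgeR with adjusted p under the threshold. At stage 8 the interaction of E2f1 MO and Cdkn1a mRNA was 4.38 for pou5f3.1 and 2.59 for sox2. The stage 7 to 8 step minus that of wildtype was, in morphants, -5.18 for pou5f3.1, -0.29 for pou5f3.2, 0.21 for pou5f3.3, -3.07 for sox2 and 0.20 for sox3. With deltaDBD mRNA it was -5.48, -0.23, 0.19, -3.85 and 0.17 for these genes in the same order. With MO and Cdkn1a mRNA together it was -5.85, -0.28, 0.19, -3.69 and 0.15. With Cdkn1a mRNA alone it was -0.22 for pou5f3.2 and -2.39 for sox2. All these step differences share the wildtype libraries, and those of pou5f3.1 rest on 3 counts in stage 7 wildtype. Each is also the stage 8 difference from wildtype minus the stage 7 one, so it is not separate from those results.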

How the results depend on the processing

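Of 5425 recomputed values for 175 results of single genes, 5324 kept their side of the threshold, 74 lost and 27 gained a call. Where the main or the recomputed value was called, 0 reversed direction. Some results without a call changed sign. The number of the 5 genes called moved by over 1.5 times in few settings other than leaving out a library. Without the count filter it was 2 in place of 1 for deltaDBD mRNA against wildtype and 1 in place of 0 for MO + Cdkn1a mRNA against wildtype, both at stage 8. With only the stages compared it was 1 in place of 0 for the stage 7 interaction, 0 in place of 1 for deltaDBD mRNA against the MO at stage 8, and 1 in place of 2 for the step with Cdkn1a mRNA minus wildtype, as with DESeq2. The cause was not tested. Leaving out each library gave 1 to 3 called genes for E2f1 mRNA against wildtype, 0 to 2 for Cdkn1a mRNA against wildtype and 0 to 1 for the interaction at stage 7. At stage 8 it gave 0 to 2 for the MO against wildtype, deltaDBD mRNA against the MO and deltaDBD mRNA against wildtype, 1 to 3 for E2f1 against deltaDBD mRNA, 0 to 1 for MO + Cdkn1a mRNA against the MO or wildtype, and 2 to 4 for the interaction. For steps minus wildtype it gave 3 to 5 with deltaDBD mRNA and with MO + Cdkn1a mRNA and 1 to 4 with Cdkn1a mRNA. Shares without division by length moved, to 12.2% at stage 6 and 23.1% at stage 8 for pou5f3.2 in wildtype. Depth limits pou5f3.1 in the groups where it had 6 counts or fewer: wildtype of stages 6 and 7, E2f1 mRNA at stage 7 and Cdkn1a mRNA at both stages. The same limit holds for sox2 in stage 6 wildtype (6 counts) and with E2f1 mRNA at stage 7 (5 counts), and for its folds that use these groups.

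Groups share replicate numbers, but not every pair of samples with the same number deviated together: over 8786 genes the correlation of deviations was over 0.1 in 13 of 78 group pairs and under -0.1 in 3 (median 0.0473, -0.248 to 0.21). The numbers were therefore not taken to pair the samples. A fit with the replicate number as a block changed the number of called genes in no comparison, and sox2 between stages 6 and 7 in wildtype stayed at 2.31 (adjusted p = 0.00033).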
